A study of Mus musculus with 16 samples.

Results

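The genes described here run DNA replication and cell division: the helicase of the replication fork, the enzymes that supply its nucleotides, the cyclins and kinases that drive entry into mitosis, and the proteins that build the spindle and part the chromosomes. They were taken by name, 35 in all, from a matrix of FPKM values (fragments counted per transcript, divided by its length and by the size of the library) with 14023 genes. Of the 35, 34 were analysed, and all 34 were among the 13669 genes that reached 1 FPKM in at least 2 of the 16 libraries. Cenpf, a kinetochore protein, was not analysed here. The rule uses names alone, not expression values, though the genes were chosen with earlier results of these data known.

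The libraries came from epididymal (eWAT) and inguinal (iWAT) white fat of mice with wild-type PPARg (WT), the nuclear receptor that drives fat cell formation, or with K107R on both alleles of PPARg, a change of the SUMO-accepting lysine to arginine. All mice had 10 weeks of chow followed by 19 weeks of high-fat diet (60% of calories), and all were gavaged for 1 week with 1% methylcellulose, alone (vehicle) or with 10 mg/kg of the PPARg agonist rosiglitazone. Depot, genotype and treatment give 8 groups of 2 libraries, numbered 1 and 2 in the labels. The labels used here give no sex or strain, and do not say whether libraries 1 and 2 are separate mice or whether the depots share animals. The p-values therefore reflect differences among libraries that could be purely technical.

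Most cells of adult fat are out of the cycle. Those that do divide are fat cell progenitors, endothelial cells and immune cells. As a cell leaves rest, E2F factors switch on replication genes, among them the MCM helicase, Pcna and the ribonucleotide reductase Rrm1 and Rrm2. Later, complexes with B-Myb and Foxm1 switch on mitotic genes such as Ccnb1, Plk1 and Birc5, many through a cell cycle homology region (CHR element) and CCAAT boxes close to the start. In resting cells the DREAM complex holds both sets down. In whole tissue, fewer dividing cells and less of these RNAs per dividing cell cannot be told apart.

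Promoter sequences are shown because replication and mitotic genes are known to carry different control letters near their starts. RefSeq windows on GRCm38.p6, each of 300 bases from 250 before to 50 after a start, were matched for 28 of the 34 genes (30 windows). Kif20a, Foxm1, Ccna2, Mcm4, Tpx2 and Aurkb had no entry. Printed here are the 3 replication genes and 3 other members with the smallest p in the depot comparison among those with an entry. Each is given as the 250 bases before its RefSeq start, 5′ to 3′ on the gene's strand, with matches to the searched motifs in capitals. In GRCm38.p6 they are Mcm6 chr1:128359706-128359955 (minus strand), Mcm3 chr1:20820313-20820562 (minus strand), Pcna chr2:132253181-132253430 (minus strand), Ccnb2 chr9:70421555-70421804 (minus strand), Cdca8 chr4:124936918-124937167 (minus strand), Cdca3 chr6:124829926-124830175 (plus strand).
Mcm6: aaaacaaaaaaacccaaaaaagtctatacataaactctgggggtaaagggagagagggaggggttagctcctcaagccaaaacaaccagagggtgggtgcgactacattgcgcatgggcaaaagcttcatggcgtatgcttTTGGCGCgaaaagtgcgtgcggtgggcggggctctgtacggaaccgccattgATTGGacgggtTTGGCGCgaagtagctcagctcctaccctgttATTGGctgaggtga
Mcm3: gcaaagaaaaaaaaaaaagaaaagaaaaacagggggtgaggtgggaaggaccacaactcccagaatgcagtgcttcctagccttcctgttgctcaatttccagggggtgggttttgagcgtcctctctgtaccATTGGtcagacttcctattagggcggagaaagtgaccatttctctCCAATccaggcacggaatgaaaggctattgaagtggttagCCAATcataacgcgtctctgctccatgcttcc
Pcna: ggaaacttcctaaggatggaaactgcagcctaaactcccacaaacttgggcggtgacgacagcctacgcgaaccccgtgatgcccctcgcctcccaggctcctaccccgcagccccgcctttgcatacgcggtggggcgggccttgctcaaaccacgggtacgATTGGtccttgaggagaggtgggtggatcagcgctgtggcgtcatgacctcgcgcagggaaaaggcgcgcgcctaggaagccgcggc
Ccnb2: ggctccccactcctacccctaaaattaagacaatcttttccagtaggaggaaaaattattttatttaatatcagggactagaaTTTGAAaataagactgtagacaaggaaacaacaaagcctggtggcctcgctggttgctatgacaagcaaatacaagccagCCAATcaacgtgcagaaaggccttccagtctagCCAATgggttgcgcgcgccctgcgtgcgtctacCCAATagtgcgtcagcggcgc
Cdca8: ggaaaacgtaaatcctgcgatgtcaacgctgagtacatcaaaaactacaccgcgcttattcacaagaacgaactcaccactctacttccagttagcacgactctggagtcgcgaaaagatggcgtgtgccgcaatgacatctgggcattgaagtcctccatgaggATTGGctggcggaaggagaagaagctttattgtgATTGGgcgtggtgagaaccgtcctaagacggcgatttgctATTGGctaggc
Cdca3: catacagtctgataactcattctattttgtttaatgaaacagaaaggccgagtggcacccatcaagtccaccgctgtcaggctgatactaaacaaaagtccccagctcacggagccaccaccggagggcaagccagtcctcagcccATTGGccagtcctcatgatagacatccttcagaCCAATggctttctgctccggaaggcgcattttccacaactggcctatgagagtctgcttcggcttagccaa
The E2F core was searched as TTCCCGC and TTGGCGC, the CHR element as TTTGAA and TTCGAA, and the CCAAT box as CCAAT, all on both strands. The E2F core was in 60.0% of 10 windows of replication genes (MCM genes, Rrm1, Rrm2, Tyms and Pcna), 15% of 20 windows of the other members and 6.81% of all 32851 promoter windows of that length. The CHR element was in 20.0%, 80.0% and 19.2%, and the CCAAT box in 90.0%, 90.0% and 37.4%. In Mcm6 both E2F cores lie before the start, at -109 and -46, while the 3 of Mcm3 lie after it. Ccnb2 carries 1 CHR element at -167 and 1 past the start, and those of Cdca8 and Cdca3 also lie past the start. In Cdca8 the CHR element overlaps a CCAAT box. The window of Birc5 held no match to any searched motif, and that of Ccnb1 held no CHR element. For 25 of 30 windows, bases after the start were found in a transcript of the gene on its strand. A match is a run of letters and not a measured binding site. Positions before and past the start refer to the RefSeq start. In the GRCm38 gene annotation, Cdca3 begins further upstream (at 124829547), as do Cdca8 (at 124939311) and Pcna (at 132253314). The printed bases of Cdca3 and Cdca8 thus lie within the annotated gene, as do part of those of Pcna.

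The levels of most of these genes were low, and the highest was that of Pcna, the sliding clamp of the DNA polymerase. The median over all genes of the matrix ran from 5.36 to 9.61 FPKM per library. Besides Pcna, Mcm7 was above that in every library, at 10.6 FPKM or more. Mean FPKM over 16 libraries ran from 0.730 for Bub1 to 78.9 for Pcna, with a median of 3.66. Bub1 and Cenpe were under 1 FPKM in all inguinal libraries.

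**Figure D1:**
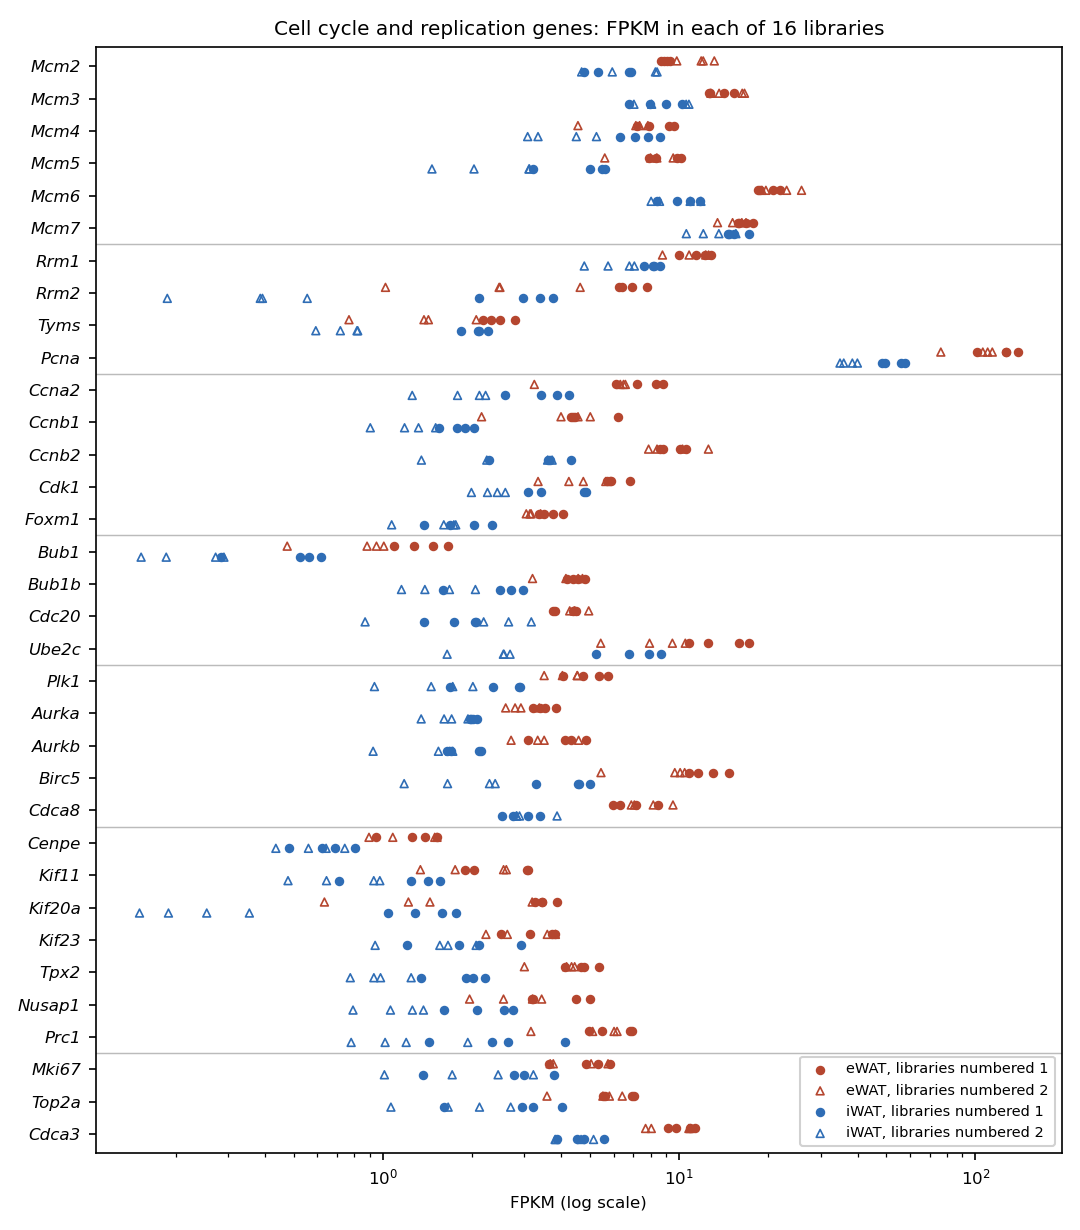
FPKM of each of the 34 genes (rows, grouped by role) in the 16 libraries on a log axis; red marks eWAT, blue iWAT, filled circles libraries numbered 1 and open triangles those numbered 2. The eWAT values lie to the right of the iWAT values for most genes, without overlap for 19 of 34, and Rrm2, Kif20a and Tyms spread widely, with number 2 libraries lower.

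The files give no counts, so depth is unknown. Between 11442 and 12898 genes reached 1 FPKM per library, and FPKM summed to between 411746 and 596519. Libraries numbered 2 had lower values in general: the ratio of their mean to that of libraries numbered 1 had a median of 0.766 over all genes tested and 0.784 over the 34. It was lowest for Rrm2 (0.306), Kif20a (0.378) and Tyms (0.474) and highest for Mcm2 (1.24). Both eWAT K107R vehicle libraries stand apart: 7 genes of the epididymis, the tissue next to this fat, summed to 3377 and 3249 FPKM there and to at most 5.97 in any other library. Of the 34 genes, 8 share exon bases with another gene in the matrix, among them Kif20a with Cdc23, Prc1 with Rccd1, Ube2c with Tnnc2 and Ccna2 with Exosc9, all on opposite strands. Pcna, Tyms, Ccnb1 and Ccnb2 have named pseudogenes. The strand setting of the counting is not given in the sources used here, so these values are less certain.

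The first comparison was between the depots. Genes of replication and mitosis were higher in epididymal than in inguinal fat: 30 of 34 passed the test as higher in eWAT and 0 as lower, where 19.9% of all genes tested were called higher and 12.5% lower. The difference on the log2(FPKM + 1) scale was above 0 for all 34 (61.1% of all genes), with a median of 0.85 against 0.10 over all genes tested. The largest was that of Birc5 (survivin, of the chromosomal passenger complex) at 1.55, and the smallest that of Mcm7 at 0.17. With the replicate number as a block all 34 were called, against 34.8% of all genes; adjusted p for the 4 not called without it was then 8.51e-05 for Rrm2, 0.0121 for Mcm4, 0.0259 for Tyms and 0.0326 for Mcm7. Bub1 and Cenpe reached 1 FPKM in eWAT libraries alone (5 and 6 of 8), so the filter admitted them through the depot in which they were higher. Both are among the 30 called, and their calls are not independent of that filter.

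Among the 6 subunits of the MCM helicase, which unwinds DNA at the fork, 4 were called higher in eWAT. Mcm6 lay between 18.5 and 25.9 FPKM in eWAT (median 20.2) and between 8.03 and 11.8 in iWAT (median 10.3), with no overlap between the depots. Its difference was 1.00 ± 0.07 SE (adjusted p = 1.27e-06 by limma). Mcm5 lay between 5.60 and 10.1 FPKM in eWAT (median 8.37) and between 1.46 and 5.60 in iWAT (median 3.16), which touch without overlapping (log2 1.09 ± 0.21, adjusted p = 0.00219). Mcm2 (0.63) and Mcm3 (0.65) passed too. Mcm7, host gene of the Mir25 microRNA cluster, had 16 ± 1.29 FPKM in eWAT and 14.2 ± 2.10 in iWAT (mean ± SD, n = 8) and did not pass (adjusted p = 0.189), and Mcm4 did not either (log2 0.39, adjusted p = 0.196). The subunits act as one ring, and their depot ratio of mean FPKM ran from 1.13 for Mcm7 to 2.34 for Mcm5.

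Of the 4 genes of nucleotide supply and the clamp, 2 were called. Pcna lay between 76.4 and 139 FPKM in eWAT (median 112) and between 34.9 and 57.9 in iWAT (median 44.2). The lowest eWAT library, K107R vehicle number 2, was above the highest iWAT library, and the difference was 1.30 ± 0.15 (adjusted p = 8.57e-05). Rrm1, the large subunit of ribonucleotide reductase, had 11.3 ± 1.41 FPKM in eWAT and 7.11 ± 1.31 in iWAT (log2 0.62, adjusted p = 0.00217). Its partner Rrm2 had a larger difference of 1.14 that did not pass (SE 0.46, adjusted p = 0.0884), with values from 1.02 to 7.78 FPKM in eWAT and from 0.187 to 3.74 in iWAT. Within the libraries numbered 1, Rrm2 was 6.24 to 7.78 FPKM in eWAT and 2.10 to 3.74 in iWAT, and it was called in that subset and in the libraries numbered 2. Those subset fits were not planned, and the share of all genes called in them was not counted. Tyms, thymidylate synthase, overlapped between the depots (log2 0.30 ± 0.24, adjusted p = 0.397).

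All 5 of the cyclins, Cdk1 and Foxm1 were called higher in eWAT. Ccnb2, a mitotic cyclin, lay between 7.88 and 12.5 FPKM in eWAT (median 9.44) and between 1.35 and 4.32 in iWAT (median 3.59). The depots were far apart, at 3.11 times as much in eWAT by the means (log2 1.41 ± 0.11, adjusted p = 3.24e-06). Ccnb1, its close relative, was also higher (1.08 ± 0.14, adjusted p = 0.000146), as was Ccna2, the cyclin of S phase and early mitosis (1.07 ± 0.20, adjusted p = 0.00232). Foxm1, a transcription factor of mitotic genes, lay between 3.04 and 4.06 FPKM in eWAT (median 3.38) and between 1.07 and 2.32 in iWAT (median 1.70; log2 0.72 ± 0.08). Cdk1, the kinase these cyclins bind, overlapped between the depots and had a smaller difference of 0.61 ± 0.18 (adjusted p = 0.0238).

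The spindle checkpoint and the anaphase-promoting complex hold and then release the separation of chromosomes. All 4 of their genes were called, among them Bub1, which the filter admitted through eWAT alone. Ube2c, the E2 enzyme of the complex, lay between 5.43 and 17.2 FPKM in eWAT (median 10.6) and between 1.64 and 8.65 in iWAT (median 3.96). Those ranges overlap (log2 1.17 ± 0.35, adjusted p = 0.025). Cdc20, which activates the complex, and the checkpoint kinase Bub1b did not overlap, with differences of 0.85 ± 0.10 and 0.85 ± 0.12. Bub1 was the lowest of the 34, at 1.10 ± 0.366 FPKM in eWAT and 0.361 ± 0.180 in iWAT (n = 8).

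All 5 mitotic kinases and chromosomal passengers were called, and none of them overlapped between the depots. Birc5 lay between 5.44 and 14.7 FPKM in eWAT (median 10.6) and between 1.18 and 5.003 in iWAT (median 2.84). The ratio of the means, 3.44, was the highest among the 34 (log2 1.55 ± 0.25, adjusted p = 0.000685). Cdca8, borealin, which binds Birc5 in the same complex, had 7.44 ± 1.19 FPKM in eWAT and 3.02 ± 0.426 in iWAT (log2 1.07 ± 0.09, adjusted p = 5.57e-06). Plk1 (0.92), Aurkb (0.84) and Aurka (0.57), kinases of centrosomes and chromosomes, followed.

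Kinesins and other spindle genes were all called, 7 of 7, among them Cenpe, which the filter admitted through eWAT alone. Prc1, which bundles microtubules at the midzone, lay between 3.15 and 6.93 FPKM in eWAT (median 5.75) and between 0.780 and 4.11 in iWAT (median 1.68). Only the WT vehicle number 1 library of iWAT reached above the lowest eWAT library (log2 1.22 ± 0.18, adjusted p = 0.00035). Tpx2, which activates Aurka on the spindle, did not overlap (1.16 ± 0.14, adjusted p = 9.94e-05). Cenpe, a kinetochore motor, was low in both depots, at 1.26 ± 0.259 and 0.621 ± 0.126 FPKM (log2 0.48 ± 0.05). Kif20a (0.95), Kif11 (0.72), Nusap1 (0.72) and Kif23 (0.60) overlapped between the depots.

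Of the remaining 3 genes, Mki67, the Ki-67 antigen of cycling cells (chromosome 7, 135689784 to 135716361), lay between 3.64 and 5.84 FPKM in eWAT (median 4.93) and between 1.01 and 3.78 in iWAT (median 2.60). The highest iWAT value, in WT vehicle number 1, was just above the lowest of eWAT, in K107R vehicle number 1 (log2 0.79 ± 0.10, adjusted p = 0.000128). Top2a, the topoisomerase that untangles sister chromosomes (chromosome 11, 98992943 to 99024189), lay between 3.57 and 7.05 FPKM in eWAT (median 5.72) and between 1.06 and 4.01 in iWAT (median 2.41; log2 1.03 ± 0.13, adjusted p = 0.000173). Cdca3, which triggers mitotic entry, had 9.82 ± 1.39 FPKM in eWAT and 4.52 ± 0.655 in iWAT and did not overlap (0.97 ± 0.09, adjusted p = 1.2e-05).

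**Figure D2:**
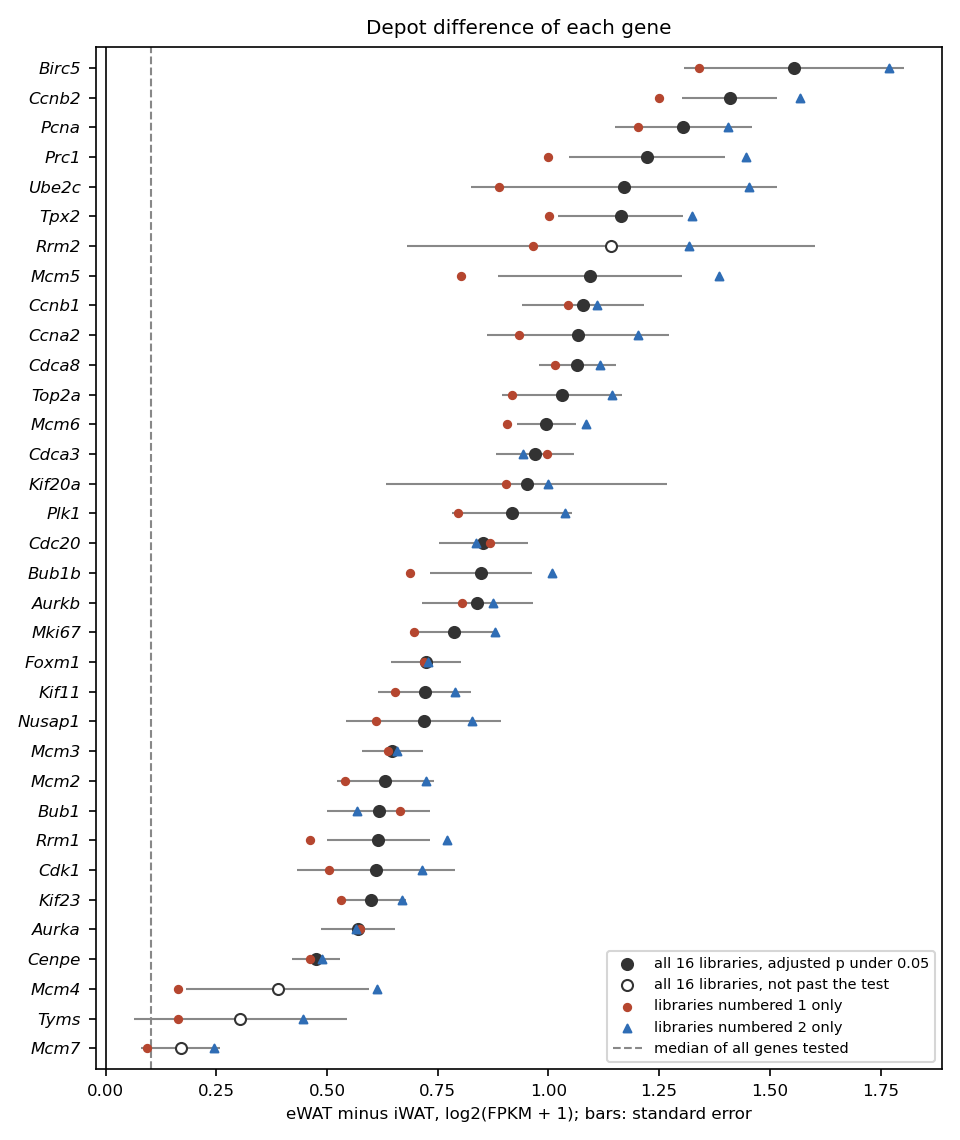
Difference between eWAT and iWAT in log2(FPKM + 1) for each gene with its standard error (black: called; open: not called), beside the difference within libraries numbered 1 (red) and numbered 2 (blue); the dashed line is the median of all genes tested. All 34 lie above 0, from 0.17 for Mcm7 to 1.55 for Birc5, and so do both subsets of libraries.

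In both sets of same-numbered libraries all 34 genes were higher in eWAT (43% of all genes), with a median difference of 0.80 in number 1 libraries (-0.04 over all genes) and 0.91 in number 2 libraries (0.24 over all genes). The depots did not overlap, 8 libraries against 8, for 19 of the 34, against 8.24% of all genes. The direction held in each of the 4 conditions for all 34, with medians of 0.74 in WT vehicle, 0.91 in WT rosiglitazone, 0.67 in K107R vehicle and 1.10 in K107R rosiglitazone. Whether these 4 medians differ was not tested. Rescaling each library by its median ratio moved the median of all genes by -0.12 and left 31 genes called, with a median of 0.75. Without the eWAT K107R vehicle libraries 30 were called (median 0.89). Cdk1, Kif20a and Ube2c each lost their call when any of the same 9 libraries was left out (adjusted p from 0.0501 to 0.103): any eWAT library numbered 1, any iWAT library numbered 2, or eWAT K107R rosiglitazone number 2.

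Markers of other cell types differed between the depots as well. Their counts of called genes stand beside 19.9% of all genes called higher and 12.5% called lower. The 12 macrophage genes summed to between 4999 and 6231 FPKM in eWAT and between 1062 and 1488 in iWAT, and 11 of them were called higher in eWAT and 1, Cd163, lower. Fat progenitor and fibroblast genes summed to 1830 to 2810 FPKM in eWAT and 969 to 2027 in iWAT, with 7 of 11 called higher and 1 lower. In 4 further lists every eWAT library was above every iWAT library: mast cell genes (122 to 438 FPKM against 63.1 to 96.3), germinal centre genes (92.4 to 165 against 36.1 to 83.5), mesothelium (49.7 to 79.9 against 1.37 to 4.61) and other epithelium (16.5 to 125 against 1.70 to 2.91). Other lists went the other way: the 10 B and plasma cell genes summed to 9.86 to 58.8 FPKM in eWAT and 33.2 to 335 in iWAT (9 called lower), and T and NK cell genes to 25 to 63.3 and 19.3 to 126 (1 called higher and 7 lower, of 10 tested). The germinal centre list is not read as a measure of germinal centre cells, since its eWAT sums lie above the B and plasma cell sums there. Fat cell genes summed to 5809 to 9786 FPKM in eWAT and 9459 to 16503 in iWAT (8 of 10 called lower), and the defining fat cell gene Adipoq lay between 1068 and 2107 in eWAT and between 1442 and 3320 in iWAT. Which of these cells carry the cell cycle RNA, and the part of their shares in its difference, was not tested.

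Other genes of the same pathway were followed in lists of their own, also chosen with earlier results of these data known. Of all genes tested, 19.9% were called higher in eWAT and 12.5% lower. Of 41 further mitotic genes, 32 were higher in eWAT and 1 lower (median 0.60). The largest were Stmn1, a microtubule destabiliser (log2 1.37, from 37.9 to 69.1 FPKM in eWAT and from 12.9 to 23.8 in iWAT), the centromere histone Cenpa (1.23), the kinase Pbk (1.14) and Incenp, the scaffold of the passenger complex (0.92). The single lower one was the securin Pttg1 (-0.44). Of 33 genes of origins and forks tested, 12 were higher and 1 lower (median 0.30), led by the licensing factor Cdt1 (1.33), the thymidine kinase Tk1 (1.21), Uhrf1, which keeps DNA methylation at forks (1.09), and the histone chaperone Chaf1b (0.76).

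Regulators upstream of these genes were followed too. Their counts are small and are to be read beside the 19.9% of all genes called higher and the 12.5% called lower. Of 18 RB, E2F and DREAM genes, 4 were higher, a share near that of all genes, and 0 lower (median 0.22): E2f1 (0.71), E2f8 (0.55), Mybl2, which encodes B-Myb (0.35), and E2f6 (0.31). Of 7 G1 cyclins and kinases tested, Ccnd1 (1.17) and Cdk4 (0.63), partners in leaving G1, were higher, and Ccnd3 was lower (-0.46). Among 7 CDK inhibitors, which block the cycle, Cdkn2a (0.95) and Cdkn1c (0.89) were higher and 0 lower. Whether one list moved more often than another was not tested.

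In inguinal fat the question was what the K107R mutation and rosiglitazone did to these genes. The K107R rosiglitazone group was the lowest of the 4 iWAT groups for 30 of the 34, against 31.1% of all genes, and the WT vehicle group was the highest for 25, against 27.3%. The exceptions to the first count were Rrm1, Tyms, Cdk1 and Aurka. Summed over 33 genes (all but Pcna), FPKM in libraries 1 and 2 was 145 and 110 in WT vehicle, 135 and 107.3 in WT rosiglitazone, 130 and 84.0 in K107R vehicle and 103 and 70.4 in K107R rosiglitazone. Each number 1 value is above its number 2 partner, and the K107R rosiglitazone pair is the lowest for either number.

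K107R against WT under rosiglitazone was the comparison with the largest shift in iWAT. No member passed the test over all libraries (4.13% of all genes did), with a lowest adjusted p of 0.0725 by limma; 8 had an unadjusted p under 0.05, all lower, against 6.93% of all genes. The change was below 0 for 33 of 34 (52.8% of all genes), with a median of -0.36 against -0.01 over all genes. In 31 both same-numbered libraries were lower (36.8% of all genes), and in 16 the groups did not overlap (14.2%). With the replicate number as a block 8 genes passed, all lower, against 6.45% of all genes. They were Ccnb2, Mki67, Cdc20, Top2a, Plk1, Mcm2, Mcm3 and Kif23, and their single values follow.

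Mki67 was 2.76 and 2.44 FPKM in the WT libraries and 1.36 and 1.01 in those of K107R (log2 -0.72; adjusted p = 0.0889, and 0.00896 with the block). Ccnb2 was 3.59 in both WT libraries and 2.28 and 1.35 in K107R (-0.73; adjusted p = 0.123, and 0.0291 with the block). Top2a was 3.20 and 2.12 FPKM in WT and 1.60 and 1.06 in K107R (-0.64; adjusted p = 0.416, and 0.0231 with the block). In each of these 3 genes both K107R libraries were below both of WT.

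Of the replication genes, Mcm2 was 6.75 and 8.31 FPKM in WT and 4.75 and 4.68 in K107R (-0.57; adjusted p = 0.326, and 0.0185 with the block). Mcm3 was 10.2 and 10.5 in WT and 6.77 and 7.03 in K107R (-0.53; adjusted p = 0.0725, and 0.00619 with the block). Both genes were separate between genotypes, and the WT libraries lay closer together for Mcm3 than for Mcm2. The changes of all 6 MCM genes were below 0, with a median of -0.46.

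Cdc20 was 2.05 and 2.65 FPKM in WT and 1.38 and 0.869 in K107R (-0.66; adjusted p = 0.144, and 0.0385 with the block). Plk1 was 2.90 and 2.01 in WT and 1.68 and 0.935 in K107R (-0.59; adjusted p = 0.526, and 0.0427 with the block). Kif23, a kinesin of cytokinesis, was 2.10 and 1.66 in WT and 1.21 and 0.940 in K107R (-0.47; adjusted p = 0.2, and 0.0176 with the block). All 3 are separate between the groups.

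Cdk1 was the one gene with a change above 0. In iWAT it was 3.41 and 2.25 FPKM in WT vehicle, 3.08 and 1.99 in WT rosiglitazone, 4.76 and 2.43 in K107R vehicle and 4.85 and 2.59 in K107R rosiglitazone. Each K107R library was above the WT library of its number, while the changes of its cyclins Ccnb1, Ccnb2 and Ccna2 under rosiglitazone were below 0. The Cdk1 change of 0.39 did not pass (adjusted p = 1, and 0.232 with the block). In eWAT its genotype changes were -0.14 under vehicle and -0.01 under rosiglitazone.

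**Figure D3:**
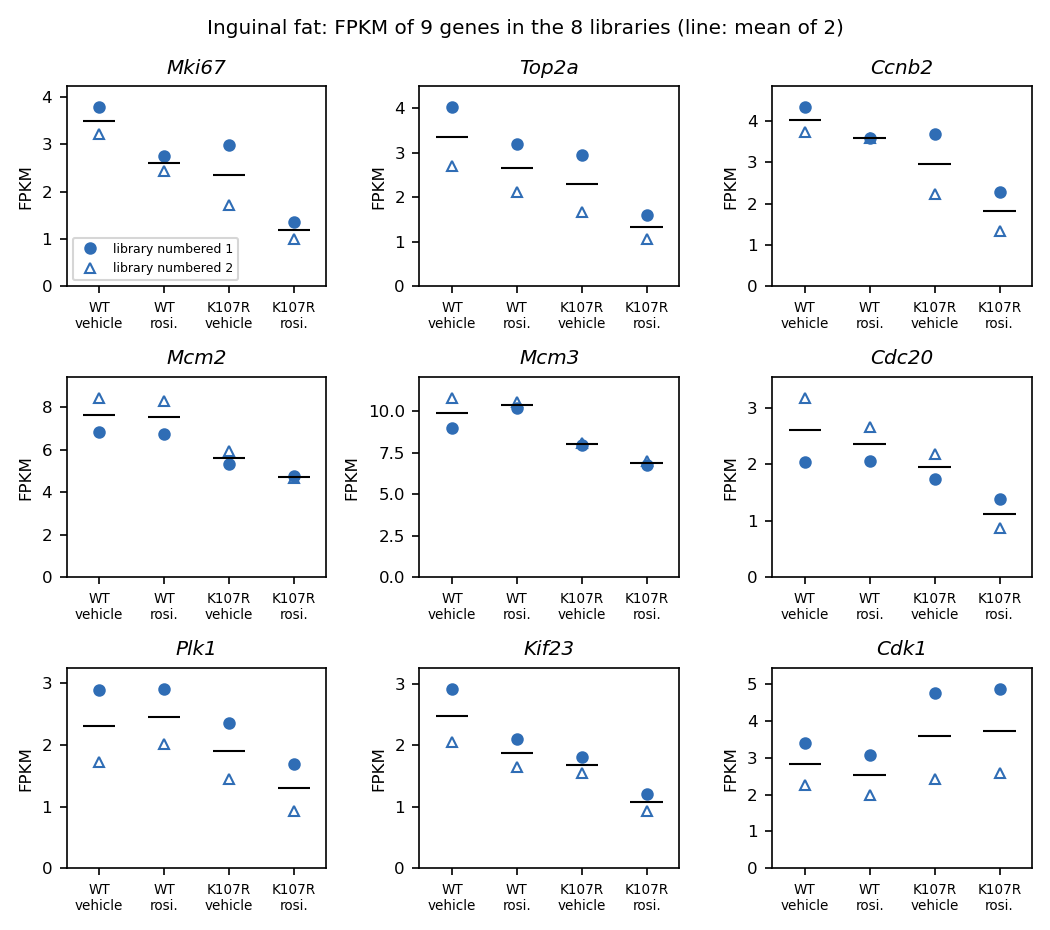
FPKM of 9 genes in the 8 inguinal libraries by genotype and treatment (circles: number 1; triangles: number 2; line: mean of 2). In 8 panels the K107R rosiglitazone pair is the lowest group, with Mki67 at 1.36 and 1.01, and in the Cdk1 panel both K107R groups lie above the WT groups by their means.

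The same comparison was made in vehicle mice. Of the 34, 0 passed the test with or without the block (0.578% and 2.12% of all genes), 31 were below 0 (66.2%), and 3 had an unadjusted p under 0.05, all lower (3.12%). The median was -0.16 against -0.06 over all genes. The smallest p-values were those of Mcm6, at 11.8 and 11.8 FPKM in WT and 9.79 and 8.58 in K107R, and Kif23, at 2.91 and 2.06 in WT and 1.81 and 1.55 in K107R. Both sets of values were lower in K107R, without passing (adjusted p = 0.812 and 0.915). The test of the difference between the 2 genotype changes, the interaction of genotype and drug, called 0 members with or without the block (0.966% and 2.53% of all genes) and none at an unadjusted p under 0.05. Its median was -0.17 against 0.03 over all genes, and its smallest p-values were those of Cdc20 (-0.39) and Mcm3 (-0.26).

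Rosiglitazone against vehicle in K107R iWAT gave changes mostly below 0. No member passed over all libraries (4.21% of all genes did); 4 had an unadjusted p under 0.05, all lower (5.73%), 31 were below 0 (45.2%), and the median was -0.27 against 0.03. With the block Mki67 (-0.59, adjusted p = 0.0219) and Kif23 (-0.37, adjusted p = 0.0451) passed, a share near the 5.82% of all genes called lower. Mki67 was 2.99 and 1.71 FPKM with vehicle and 1.36 and 1.01 with rosiglitazone, and Kif23 was 1.81 and 1.55 with vehicle and 1.21 and 0.940 with rosiglitazone. For both genes the rosiglitazone libraries lie below the vehicle libraries. Cdc20, with the next smallest p, was 1.73 and 2.18 FPKM with vehicle and 1.38 and 0.869 with rosiglitazone (-0.48, adjusted p = 0.341).

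In WT iWAT 0 members passed with or without the block (1.68% and 6.98% of all genes), and none had an unadjusted p under 0.05. The median was -0.08 against 0.03. Prc1, at 4.11 and 1.93 FPKM with vehicle and 2.33 and 1.02 with rosiglitazone (-0.58, adjusted p = 0.909), and Kif23 (-0.27) had the smallest p-values. Averaged over both genotypes, 0 passed over all libraries (5.36% of all genes), and the median was -0.14 against 0.02. An unadjusted p under 0.05 was found for 2, both lower, a share near the 6% of all genes. With the block 5 passed, all lower (6.87% of all genes): Prc1 (-0.51), Mki67 (-0.46), Top2a (-0.37), Kif23 (-0.32) and Foxm1 (-0.25). The comparisons within iWAT share libraries, so their counts are not independent.

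**Figure D4:**
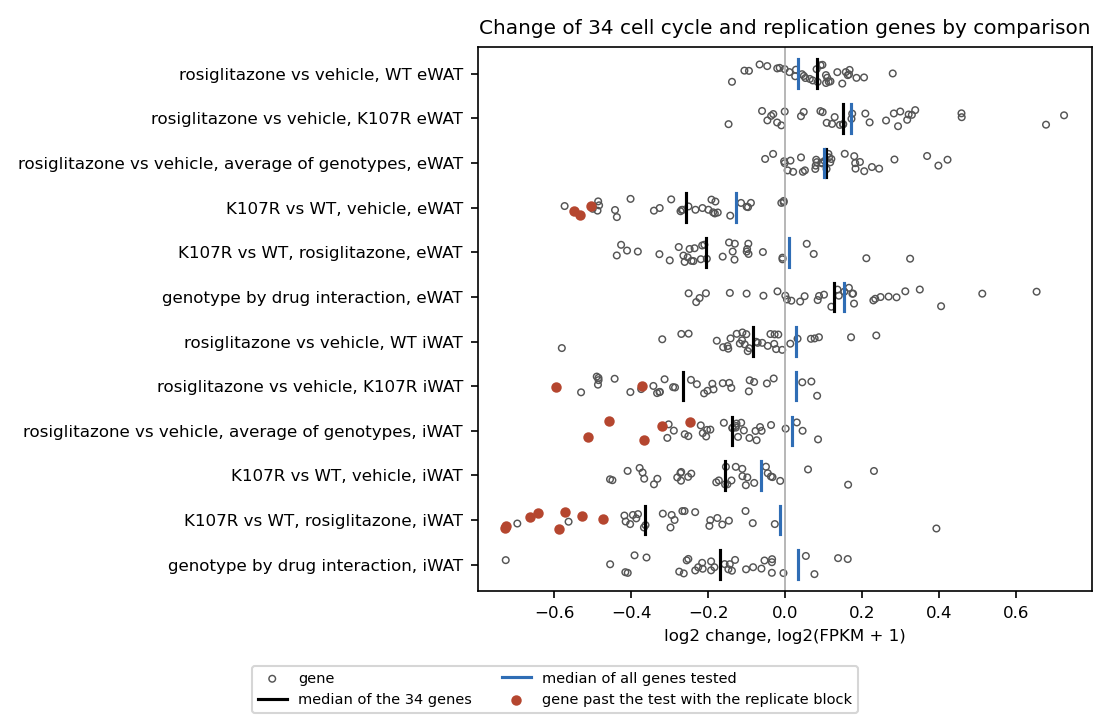
Change of each of the 34 genes (circles) in log2(FPKM + 1) in 12 comparisons within a depot, with the median of the 34 (black) and of all genes tested (blue); red points passed with the replicate block. K107R against WT under rosiglitazone in iWAT has the lowest median, -0.36, and 8 red points.

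Markers of other cell types moved in these groups too. The 10 B and plasma cell genes summed, in iWAT libraries 1 and 2, to 228 and 167 FPKM in WT vehicle, 335 and 283 in WT rosiglitazone, 137 and 101 in K107R vehicle and 42.5 and 33.2 in K107R rosiglitazone. The 11 T and NK cell genes summed to 87.0 and 68.5, 126 and 106, 66.1 and 47.4, and 27.4 and 19.3 in the same order. Under rosiglitazone 9 of 10 B and plasma cell genes and 6 of 10 T and NK cell genes tested were called lower in K107R, against 3.14% of all genes. Both sums are highest in WT rosiglitazone, the highest iWAT group for 7 of the 34 cell cycle genes and for 26.9% of all genes. Fat cell genes were highest in K107R rosiglitazone, at 16497 and 16503 FPKM, and macrophage genes lay between 1062 and 1488 in all iWAT libraries.

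Some markers of vessel walls and stroma shared their extremes in iWAT with most of the 34 genes, highest in WT vehicle and lowest in K107R rosiglitazone. They were picked after their values were seen, and how many genes of their lists share these extremes was not counted. Rgs5, a pericyte gene, was 104 and 43.5 FPKM in WT vehicle, 31.3 and 15.5 in WT rosiglitazone, 65.3 and 21.6 in K107R vehicle and 19.5 and 6.82 in K107R rosiglitazone. Pdgfrb, a receptor of pericytes and progenitors, was 48.3 and 42.6, 25.5 and 25.7, 35.9 and 31.96, and 21.0 and 20.5 in the same order. Cspg4, the NG2 proteoglycan of pericytes, was 18.1 and 15.6, 13.9 and 14.1, 15.8 and 15.0, and 9.95 and 9.89. The groups in between were ordered otherwise. These markers were lower in WT rosiglitazone than in K107R vehicle, while the summed cell cycle genes were higher there. Under rosiglitazone 0 of 10 endothelium and vessel wall genes and 0 of 11 progenitor and fibroblast genes were called between genotypes (4.13% of all genes). With the block 1 of the first was lower and 1 of the second higher (6.45% and 2.92% of all genes). The summed vessel list did not share these extremes, at 2112 and 806 FPKM in WT vehicle and 2833 and 893 in K107R rosiglitazone. Which genes of the list carry that sum, Cd36 among them, was not tested. The part of any of these markers in the cell cycle values was not tested.

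**Figure D5:**
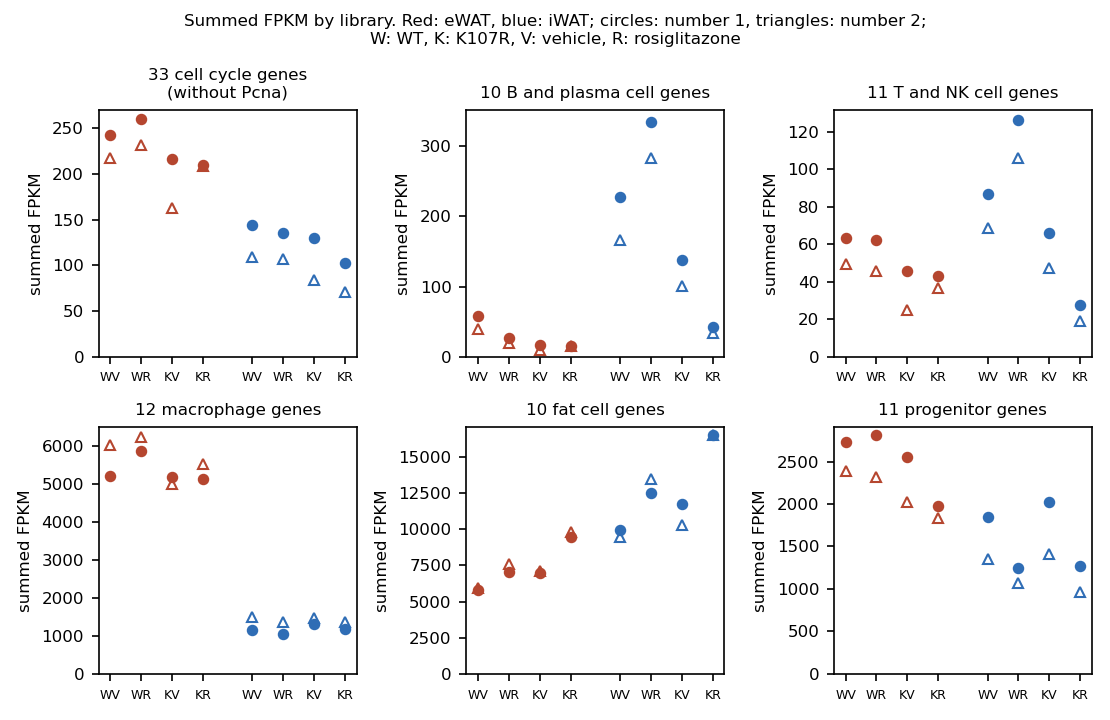
Summed FPKM in each library of 33 cell cycle genes and of 5 marker lists, by depot (red: eWAT; blue: iWAT), genotype and treatment. Cell cycle and macrophage sums are higher in all eWAT libraries, B and plasma cell sums peak in iWAT WT rosiglitazone at 335 and 283, and fat cell sums peak in iWAT K107R rosiglitazone.

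Of the 106 other pathway genes tested, 2 passed over all libraries in K107R against WT under rosiglitazone in iWAT and 1 for rosiglitazone in K107R iWAT. These shares are below the 4.13% and 4.21% of all genes called there. Tk1, which salvages thymidine for replication, under rosiglitazone was 5.27 and 6.58 FPKM in WT libraries and 3.36 and 2.96 in those of K107R (log2 -0.73, adjusted p = 0.0154). Against K107R vehicle, at 5.31 and 5.80, it also fell with the drug (-0.66, adjusted p = 0.0286). E2f2, an activator of replication genes, was 1.84 and 1.59 FPKM in WT and 0.689 and 0.502 in K107R under rosiglitazone (-0.77, adjusted p = 0.0283). Of the 41 further mitotic genes 33 were below 0 in that comparison (52.8% of all genes) and 0 passed, while with the block 7 were lower and 1 higher (6.45% and 2.92% of all genes). The higher one was Spc25, a kinetochore subunit, at 7.24 and 5.49 FPKM in WT and 15.5 and 9.84 in K107R (0.87; adjusted p = 0.201, and 0.0139 with the block).

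In epididymal fat the genotype comparison under vehicle gave changes below 0 for all 34, where 65.5% of all genes were below 0. The median was -0.26 against -0.13 over all genes. No member passed (3.35% of all genes did), 4 had an unadjusted p under 0.05, all lower (3.11%), and in 15 the groups did not overlap (18.2%). With the block 3 passed, all lower (3.53%): Kif11, a spindle motor (-0.55), Mki67 (-0.53) and Kif23 (-0.51). Mki67 was 5.84 and 5.75 FPKM in WT and 3.64 and 3.75 in K107R, and Kif23 was 3.71 and 3.82 in WT and 2.49 and 2.22 in K107R. Both genes are tight within the groups and separate between them. Cenpe, at 1.52 and 1.52 FPKM in WT and 0.943 and 1.08 in K107R (-0.33, adjusted p = 0.227), was next to Kif23 by p.

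This comparison rests on the libraries with epididymis RNA, in which 7 of 7 epididymis genes were called higher (2.89% of all genes). The K107R vehicle group was the lowest eWAT group for 26 of the 34 and for 50.1% of all genes. Rescaling moved the median of all genes by 0.14 and that of the 34 to -0.11, and then 27 were below 0 and 7 above. Kif11 alone passed after it, at -0.43. The part of the epididymis RNA was not tested. B and plasma cell genes summed to 58.8 and 39.7 FPKM in WT vehicle and 17.3 and 9.86 in K107R vehicle. Of these genes 3 of 10 were called lower, as were 6 of 10 T and NK cell genes tested, against 0.461% of all genes.

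Under rosiglitazone in eWAT, which does not use those libraries, 0 members passed with or without the block (0.907% and 3.47% of all genes), and 2 had an unadjusted p under 0.05, both lower (2.93%). In 17 of 34 K107R lay below WT without overlap, against 16.4% of all genes, and 30 were below 0 (47.8%), with a median of -0.21 against 0.01. The exceptions were Cdc20, Kif20a, Rrm2 and Tyms. Mcm6 was 21.8 and 25.9 FPKM in WT and 18.5 and 19.0 in K107R (-0.33, adjusted p = 0.653), and Cdca8 was 8.44 and 9.52 in WT and 5.98 and 6.88 in K107R (-0.43, adjusted p = 0.666). Both are separate between the groups and were not past the test.

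Rosiglitazone against vehicle in eWAT gave medians close to those of all genes. In WT 0 passed with or without the block (0.446% and 2.47% of all genes), and none had an unadjusted p under 0.05. The median was 0.08 against 0.03. The smallest p-values were those of Cdca8, at 7.16 and 8.17 FPKM with vehicle and 8.44 and 9.52 with rosiglitazone (0.20, adjusted p = 1), and Ccnb1 (0.28). In K107R 0 passed with or without the block (4.89% and 10.9%) and none had an unadjusted p under 0.05, with a median of 0.15 against 0.17. After rescaling that median was -0.02, and 19 of the 34 were below 0. Ccnb1, at 4.38 and 2.15 FPKM with vehicle and 4.32 and 5.005 with rosiglitazone, was the gene with the smallest p (0.46, adjusted p = 0.775), and its 2 pairs went opposite ways.

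Averaged over genotypes in eWAT the median was 0.10 for the 34 and for all genes, 0 passed with or without the block (5.18% and 11.7% of all genes), and none had an unadjusted p under 0.05. The smallest p-values were those of Ccnb1 (0.37) and Bub1 (0.18). The interaction of genotype and drug in eWAT called 0 with or without the block (2.53% and 4.2%) and none at an unadjusted p under 0.05, with a median of 0.13 against 0.15. Top2a (0.40) and Mki67 (0.29) had its smallest p-values.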

How the data were processed

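Per the labels' protocols, 4 ug of total RNA entered a stranded mRNA library preparation, sequenced as single 75-nt reads. The submitters' processing notes name Cufflinks 2.2.1, CASAVA 1.8.2, the mm10 build and TopHat2 2.0.12. The deposited FPKM values were used as the authors made them. The annotation, strand setting and scaling are not given in the sources used here, and depth is unknown.

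A gene was tested if 2 or more of the 16 libraries reached 1 FPKM. limma 3.58.1 in R 4.3.3 was fitted to log2(FPKM + 1), which understates changes of low genes, with 1 mean per group over all 16 libraries and a mean-variance trend. Two-sided p-values were Benjamini-Hochberg adjusted over 13669 genes within each of 13 comparisons, and called at an adjusted p under 0.05. The scripts were tested on simulated data.

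Replicate numbers of the labels were checked as pairs: in each of 28 pairs of groups, libraries with the same number deviated together from their group means (correlation 0.12 to 0.79, and from 0.50 without eWAT K107R rosiglitazone). The block was fitted as an alternative.

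The genes and lists were chosen with earlier results of these data known. Named were Mki67, Top2a, the highest and lowest gene of each of 7 role groups by mean FPKM, called genes (the 12 largest described) and, where none was called, the 2 with the smallest p. Of the pathway lists up to 4 called genes were named per comparison. Others named beyond that rule (genes not called or left after the 12, called with the block, Cdk1, Spc25, Cd163, Adipoq, Rgs5, Pdgfrb and Cspg4) were chosen after their values were seen. Alternatives were a pseudocount of 0.1, no filter or 4 libraries, rescaling, the depot alone, the block and leaving out libraries. Fits of each replicate number alone in the depot comparison were added without being planned. Gene positions are from the GRCm38 annotation.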

Additional observations from a re-analysis of the deposited data

Results flagged for a closer look

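Rosiglitazone against vehicle went opposite ways in the depots for 3 genes whose libraries did not overlap in either depot. The difference between depots was not tested, and none of the 6 changes passed the test over all libraries. The 3 genes were picked from all members after their values were seen. Of all genes, 15.5% in WT eWAT and 23.8% in K107R eWAT were higher with rosiglitazone without overlap. In iWAT 9.42% in WT and 10.8% in K107R were lower without overlap. The share of all genes with both was not counted, so these 3 are not read as a result about cell cycle genes. Ccnb2 in WT was 10.1 and 10.3 FPKM with vehicle and 10.5 and 12.5 with rosiglitazone in eWAT (log2 0.16), and 4.32 and 3.72 against 3.59 and 3.59 in iWAT (log2 -0.13). Kif23 in K107R was 2.49 and 2.22 against 3.14 and 2.63 in eWAT (log2 0.21), and 1.81 and 1.55 against 1.21 and 0.940 in iWAT (log2 -0.37, past the test with the replicate block). Top2a in K107R was 5.53 and 3.57 against 5.63 and 5.81 in eWAT (log2 0.30), and 2.95 and 1.66 against 1.60 and 1.06 in iWAT (log2 -0.48, and -0.51 after rescaling, where it passed the test). The eWAT side of the last 2 rests on the vehicle libraries with epididymis RNA, and after rescaling it was 0.04 for Kif23 and 0.12 for Top2a.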

How the results depend on the processing

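The count of genes called higher in eWAT was within 1.5 times of 30 under each alternative, from 27 to 31 when each library was left out. All 850 depot differences (34 genes under 25 settings) were above 0. The settings reuse the same 16 libraries, so these differences are not independent checks, and the share for all genes was not counted. Within depots 0 were called over all libraries, and counts moved with rescaling, the block and, in 1 comparison, the loss of 1 library. Rescaling called 1 gene in K107R against WT under vehicle in eWAT, and in iWAT 1 for rosiglitazone in K107R, 3 for its average over genotypes and 3 for K107R against WT under rosiglitazone (Top2a, Plk1 and Kif11). With the replicate block those 4 counts were 3, 2, 5 and 8, and the block changed no other count within a depot. Chosen after seeing the data, the block with rescaling gave 5, 10, 11 and 12 (11 lower and Cdk1 higher) in the same order, 2 for K107R against WT under rosiglitazone in eWAT, and in iWAT 1 for rosiglitazone in WT and 1 for K107R against WT under vehicle. The block with 1 depot alone, also chosen after seeing the data, gave 1, 14, 12 and 19 (18 lower and Cdk1 higher) in the first order. In iWAT it gave 1 for rosiglitazone in WT, 2 for K107R against WT under vehicle and 1 (Birc5) for the interaction. That fit tested 32 of the 34 genes in iWAT. The share of all genes called was not counted under rescaling, the block with rescaling or the block with 1 depot alone. Counts under those settings are therefore not read as a result about these genes. The lowest and highest counts with 1 library left out were 0 and 0 in each comparison within a depot except for the average of rosiglitazone in iWAT, at 0 and 1: Mki67 passed without K107R vehicle replicate 2. No called change reversed its direction under these alternatives, and the cause of the moved counts was not tested. Since depth is unknown, the precision of values under 1 FPKM, as for Bub1 and Cenpe in iWAT, cannot be given.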
